A study of Drosophila melanogaster with 2 samples.

Results

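Proteasome subunit genes of Drosophila melanogaster were taken as the protein-coding genes whose symbol starts with Prosalpha, Prosbeta, or with Rpn or Rpt followed by a digit. The rule found 48 of the 13945 protein-coding genes on the main chromosome arms. The members comprise 32 broadly used subunits and 16 testis-type copies, whose symbols carry a T or R after the subunit number. Binding was measured by ChIP-seq, in which DNA pulled down through the GFP tag is sequenced. The material was whole embryos of both sexes, 0 to 24 h old, from a transgenic line stably expressing Mad with a GFP (eGFP) fused to its C-terminus, and the labels do not name the promoter that drives the fusion. The 2 biological replicates form 1 group, so no second condition exists and no test over samples was possible. Whole embryos pool every cell type and a day of development, so a peak cannot be assigned to a tissue or a stage.

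The proteasome degrades proteins tagged with ubiquitin. Its 20S core is a stack of rings of alpha subunits, which gate the entrance, and beta subunits, which hold the proteolytic sites. The 19S cap has a base, with the Rpt ATPases that unfold substrates, and a lid, which removes ubiquitin. Flies also carry extra copies of many subunit genes, and many of these copies are expressed mainly in the male germline. Mad is the Smad transcription factor that carries the signal of the bone morphogenetic protein Dpp into the nucleus. Transcript levels were not measured in this series.

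Peaks came from 2 lists made by the authors on both replicates together, in build dm6. The thresholded list holds 3590 peaks that passed the authors' reproducibility threshold, with a lowest signal of 70.5. The pooled list holds 30000 peaks, most of them weaker. Its deposited name describes it as peaks and background, so an entry found in that list alone is not shown to be binding. The signal is the authors' own value per peak. A gene was counted as having a promoter peak when a summit lay within 500 bp of any of its annotated transcription start sites (TSSs). No source used here states the read depth. One pair of genes could not be judged. Prosalpha1 and its copy Prosalpha1R lie in a tandem duplication on chromosome arm 2R with 3112 bp of identical sequence, which reaches 1172 bp upstream of the Prosalpha1 TSS and 1189 bp upstream of the Prosalpha1R TSS. The pooled list and the replicates' own lists had 0 summits inside either copy of that block. Reads from there cannot be placed in 1 copy, and no source used here states how the authors treated such reads.

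Nearly every broadly used subunit gene had a promoter summit in the pooled list, which includes background, and the testis-type copies had none there. In that list, 30 of the 32 broadly used genes (93.8%) had such a promoter summit, against 55.0% of all protein-coding genes. The exceptions were Prosalpha1 and Prosbeta2. Of the 16 copies, 0 had one, which allows a share of up to 18.8% when 3 counts are taken as the limit of a count of 0 (Wilson upper bound 19.4%), and without the duplicated pair the counts were 30 of 31 and 0 of 15. In the thresholded list, 9 of the 32 broadly used genes had a promoter summit (28.1%, 95% Wilson interval 15.6 to 45.4%), against 19.7% of all protein-coding genes, a background that lies inside that interval. Again 0 of the 16 copies had one. At 21 of the 30 broadly used genes with a pooled promoter summit, none was in the thresholded list. The interval and the limit cover counting error over genes in these lists and not the spread between embryo collections. The difference between the gene groups was not tested.

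The broadly used subunits with thresholded peaks were 4 of 8 lid genes, 3 of 7 alpha genes, 1 of 7 beta genes and 1 of 10 base genes. Their peaks were of moderate strength, with a median signal of 87.9 and a median rank of 2454 in the list, against a median signal of 115 and rank of 1567 over all 2753 protein-coding genes with a thresholded promoter summit. For comparison, 67 of 92 cytosolic ribosomal protein genes (72.8%) had a thresholded promoter summit, with a median signal of 158.

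**Figure D1:**
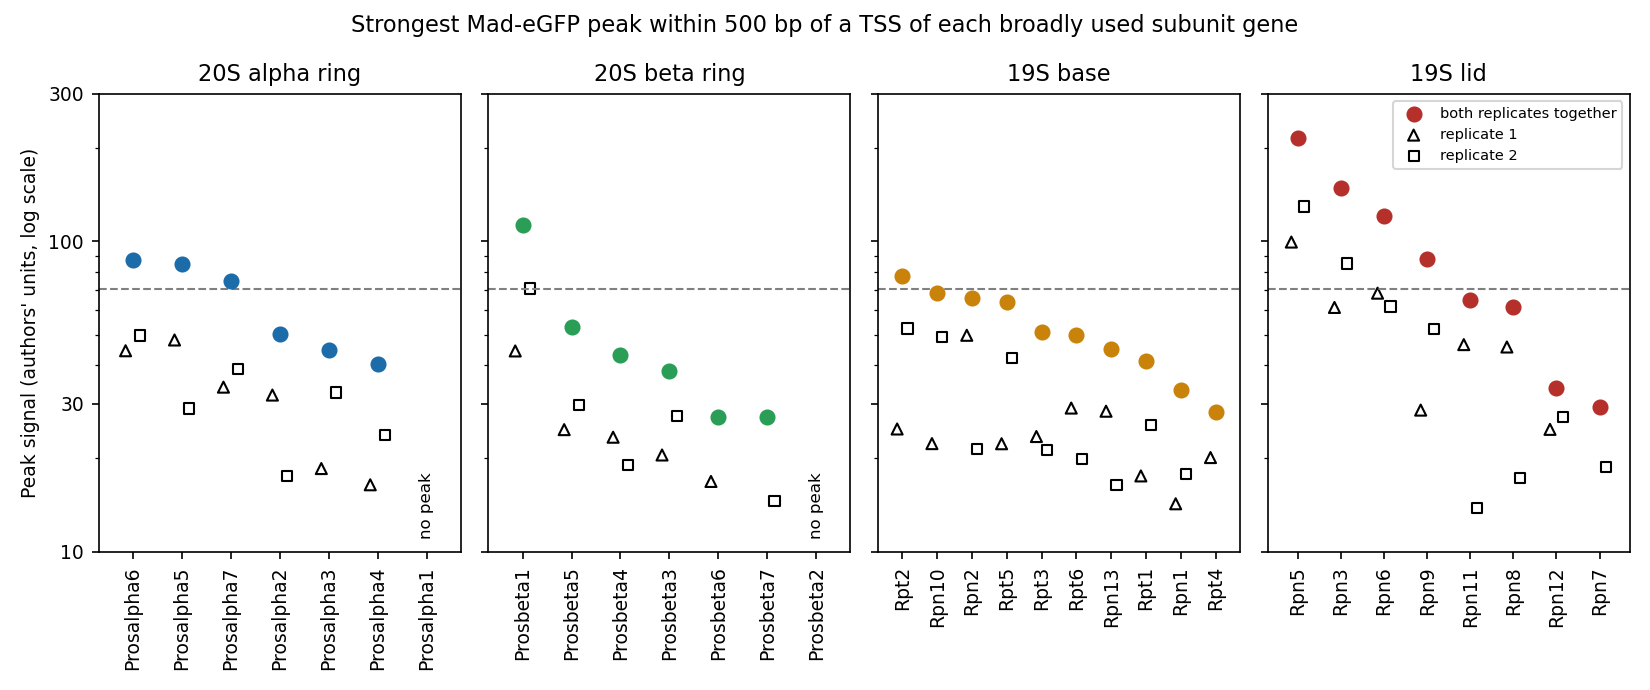
Signal of the strongest promoter peak (y axis, authors' units, log scale) of each broadly used subunit gene by role, for both replicates together (filled circles) and for the overlapping peak of replicate 1 (triangles) and replicate 2 (squares). The dashed line is the lowest thresholded signal, 70.5, which applies to the filled circles, and 9 genes lie above it, led by Rpn5 with 216.

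The strongest peaks were at lid genes, but at each of the 4 with a thresholded peak the strongest summit was nearest the start of another gene. At Rpn5, a scaffold subunit of the lid, the peak had a signal of 216 and ranked 415 of 3590, with 99.6 in replicate 1 and 130 in replicate 2. Its summit at 5789234 of arm 3R was 259 bp upstream of the Rpn5 TSS and also within 500 bp of that of Hat1, which starts 109 bp upstream of Rpn5 on the opposite strand. A further thresholded summit, with a signal of 76.6, lay between both starts, 56 bp upstream of Rpn5. At Rpn3, another lid scaffold subunit, the signal was 149, with 61.3 in replicate 1 and 84.9 in replicate 2. That summit was 176 bp upstream of the TSS of Rpn3, at the start of its divergent neighbour l(2)37Bb, and a further thresholded peak of 125 had its summit 28 bp downstream of the Rpn3 TSS. Replicate 2 was the higher at both genes, as it was at 2715 of 3585 thresholded peaks of the whole list. Both replicates put Rpn5 above Rpn3. At each gene the same replicate peak overlapped both pooled peaks, so the replicates do not resolve them.

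The stretches upstream of 4 genes with thresholded peaks, and of 2 genes without such a peak, are given to set the start regions beneath or beside the summits next to start regions that have none. Each runs 5′ to 3′ towards the gene, ends at the base before its TSS and stops at the first annotated exon upstream or after 200 bp. Capitals mark matches to TATCGATA, which the transcription factor DREF binds at many housekeeping and replication genes, or to its shorter form ATCGATA. The last 2, a subunit gene and a copy without a thresholded peak, were chosen after their values were seen. Prosalpha6T is the copy whose broadly used subunit had a thresholded peak.
Rpn5 (chr3R:5789385-5789492, plus strand): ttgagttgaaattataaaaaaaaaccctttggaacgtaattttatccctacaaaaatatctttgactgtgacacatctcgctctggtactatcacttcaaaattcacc
Rpn3 (chr2L:19051613-19051789, plus strand): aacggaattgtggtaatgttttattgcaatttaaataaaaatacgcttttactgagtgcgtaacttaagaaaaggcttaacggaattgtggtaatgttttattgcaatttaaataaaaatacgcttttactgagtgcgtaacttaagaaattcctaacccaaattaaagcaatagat
Prosalpha6 (chr2L:10221217-10221350, plus strand): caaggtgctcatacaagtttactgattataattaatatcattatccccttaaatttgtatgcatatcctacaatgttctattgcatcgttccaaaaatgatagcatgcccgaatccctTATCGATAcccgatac
Rpt2 (chr3R:23931559-23931638, minus strand): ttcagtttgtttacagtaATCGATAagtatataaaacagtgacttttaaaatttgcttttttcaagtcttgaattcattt
Prosbeta2 (chr3L:14999751-14999950, plus strand): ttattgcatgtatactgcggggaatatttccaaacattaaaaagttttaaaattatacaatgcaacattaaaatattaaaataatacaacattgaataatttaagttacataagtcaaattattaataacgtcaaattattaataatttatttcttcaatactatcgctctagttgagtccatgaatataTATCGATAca
Prosalpha6T (chr2L:13231839-13232038, plus strand): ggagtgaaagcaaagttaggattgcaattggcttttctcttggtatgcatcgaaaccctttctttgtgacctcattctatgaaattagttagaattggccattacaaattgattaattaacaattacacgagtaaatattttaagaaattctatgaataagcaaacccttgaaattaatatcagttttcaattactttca

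All 6 are poor in G and C, from 22% at Prosbeta2 and 23.8% at Rpt2 to 32.4% at Rpn5 and 35.1% at Prosalpha6, with 28.8% at Rpn3 and 30% at Prosalpha6T. The 177 bp between Rpn3 and l(2)37Bb contain a direct repeat of 72 bp whose copies start 78 bp apart. The stronger Rpn3 summit is at the second base of that stretch and the other is 28 bp downstream of the TSS. Reads within the repeat may map to either copy. Both DREF sites of Rpn3 lie outside the stretch shown, with their centres 17.5 and 255.5 bp from the stronger summit, the latter beyond the other thresholded summit. Prosalpha6 has the whole DREF site starting 16 bp before its TSS, and Rpt2 has the shorter form starting 62 bp before. Prosbeta2 has the whole site starting 10 bp before its TSS and still no summit in the pooled list within 500 bp.

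The remaining lid genes with thresholded peaks were Rpn6 and Rpn9, both lid scaffold subunits. Rpn6 had a signal of 121 (68.1 in replicate 1, 61.7 in replicate 2) with the summit nearer the start of ave. That summit lay inside Rpn6, 462 bp downstream of its 5′ end and 177 bp upstream of an internal TSS. Rpn9 had 87.9 (28.6 and 52.4) with the summit also inside the gene, 245 bp downstream of its 5′ end and 206 bp upstream of an internal TSS. The other 4 lid genes had weaker peaks. Rpn11, the deubiquitinase of the lid, had a pooled signal of 64.8, with 46.5 in replicate 1 and 13.9 in replicate 2. Rpn8, the partner of Rpn11, had 61.5 (45.7 and 17.2), while Rpn12 had 33.6 (24.8 and 27.2). Rpn7 had 29.3, with 18.7 in replicate 2 and no overlapping peak in replicate 1. At Rpn11 and Rpn8 replicate 1 was well above replicate 2, the reverse of Rpn9.

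In the base, Rpt2, an ATPase of the ring, was the gene with a thresholded peak, at a signal of 77.4 with its summit 16 bp downstream of the TSS. Replicate 1 gave 24.9 there and replicate 2 gave 52.4. The other 9 base genes had weaker peaks, from 28.2 at the ATPase gene Rpt4 to 68.1 at Rpn10, a ubiquitin receptor. Rpn10 had 22.3 in replicate 1 and 49.3 in replicate 2, and its summit was 25 bp upstream of a TSS. Rpn2, a scaffold of the base, had 65.7 with the opposite order of replicates (49.8 and 21.4). Rpt5 had 64.03, with 22.3 in replicate 1 and 41.99 in replicate 2, and shares its start region with RanBP3, whose TSS is 42 bp away. Among all members, the nearest to the threshold were Prosalpha7 of the alpha ring, just inside at 74.3, and Rpn10, just outside at 68.1.

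Among alpha subunits, which form the gate of the core, Prosalpha6 had a signal of 87.5 with 44.4 in replicate 1 and 49.7 in replicate 2. Its thresholded summit was 261 bp upstream and nearer the start of Npc1a, and a weaker pooled summit (54.8) lay 45 bp upstream of Prosalpha6 itself. Prosalpha5 had 84.7 (48.1 and 28.9) with the summit 82 bp upstream of its nearest TSS, and Prosalpha7 had 74.3 (33.9 and 38.8) with the summit 33 bp downstream. The replicates were close at Prosalpha6 and Prosalpha7, and replicate 1 was the higher at Prosalpha5. Prosalpha2, Prosalpha3 and Prosalpha4 had weaker peaks of 50.2, 44.8 and 40.4.

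Of the beta subunits, Prosbeta1, a proteolytic subunit, had a thresholded peak with a signal of 113, with 44.4 in replicate 1 and 70.6 in replicate 2. Its summit was 85 bp upstream and nearer the divergent start of Rrp42, 121 bp away from that of Prosbeta1. Prosbeta5, another proteolytic subunit, had 53.02 (24.7 and 29.7) with the summit 6 bp downstream of the TSS, Prosbeta4 had 43.2 and Prosbeta3 had 38.2. Prosbeta6 and Prosbeta7 had the lowest signals of the broadly used genes, 27.3 and 27.2, each with an overlapping peak in 1 replicate. Prosbeta2, also a proteolytic subunit, had its nearest pooled summit 1129 bp from its 5′ end.

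The replicates ranked these genes differently near the threshold. At the 9 thresholded genes replicate 1 had a median of 44.4 and replicate 2 one of 52.4, and replicate 2 was higher at 7. Replicate 2 was also the higher at 2715 of 3585 thresholded peaks of the whole list. The median log2 ratio of replicate 2 over replicate 1 was 0.38 (SD 0.55 across the 9 peaks), against 0.28 (SD 0.46) over 3585 thresholded peaks of the whole list. Among the 26 broadly used genes with an overlapping peak in both replicates, the Spearman correlation of the signals was 0.27, as a description of genes whose values come from the same 2 libraries. Taking from either replicate its 3590 strongest peaks, 10 broadly used genes had a promoter summit in replicate 1 and 9 in replicate 2, against 19.8% and 19.5% of all protein-coding genes. The genes in both were 5 of 32 (15.6%, against 15.4% of all protein-coding genes), namely Rpn5, Rpn3, Rpn6, Prosbeta1 and Prosalpha6. Rpn2, Rpn8 and Rpn11 came in from replicate 1, and Rpn10 and Rpt5 from replicate 2. In the replicates' whole lists of 30000 peaks, 29 broadly used genes had a promoter summit in replicate 1, 28 in replicate 2 and 27 in both, against 45.03% of all protein-coding genes in both.

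**Figure D2:**
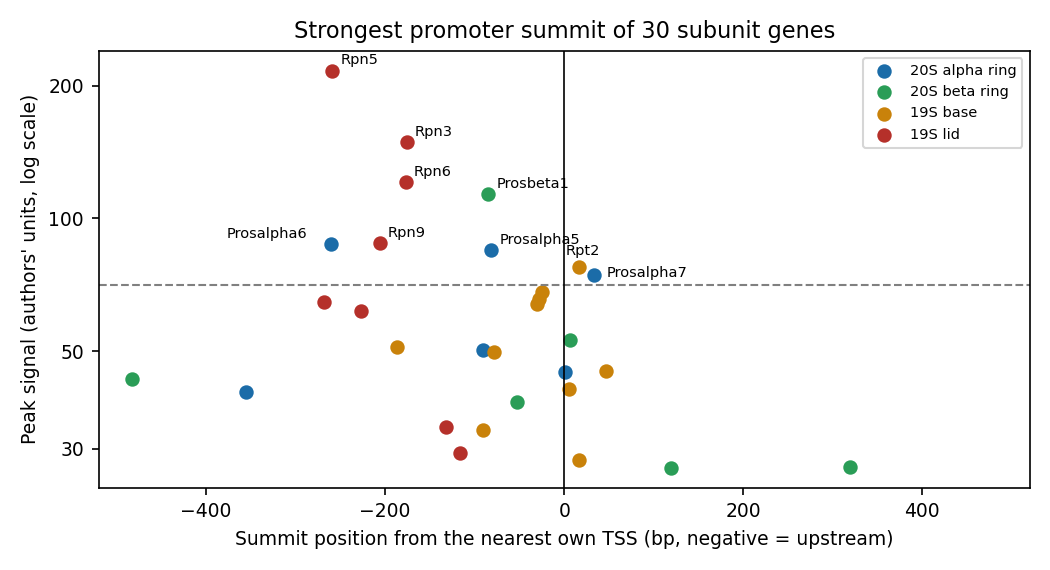
Position of the strongest promoter summit from the nearest own TSS (x axis, bp) and its signal (y axis, authors' units, log scale) for the 30 broadly used genes with a pooled-list summit, coloured by role. The dashed line is the lowest thresholded signal. All 30 summits lie within 500 bp of the TSS by the rule, and 24 of them within 250 bp.

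Summits were often closer to the start of a neighbour than to that of the subunit gene. They were chosen within 500 bp of a TSS, so that rule sets much of their closeness to a start. Over the 30 genes the median position of the strongest summit was -83.5 bp relative to the nearest own TSS, where negative values are upstream. At the 9 genes with thresholded peaks it was -176 bp, against -107 bp over all 2753 protein-coding genes with a thresholded promoter summit. For 20 of the 30 the strongest summit was nearest a TSS of the subunit gene itself, and for 25 some pooled summit was. Among the 9 genes with thresholded peaks this held for 3 (Prosalpha5, Prosalpha7 and Rpt2). Over all 2753 protein-coding genes with a thresholded promoter summit it held for 1954, and over 67 such ribosomal protein genes for 62. At Rpn3, Rpn5, Rpn6, Prosalpha6 and Prosbeta1 the strongest summit was nearest the start of l(2)37Bb, Hat1, ave, Npc1a and Rrp42, in that order. When a thresholded summit counted for the gene with the nearest TSS alone, 4 of the 32 broadly used genes kept a promoter summit, Rpn3 through its second peak, against 14.3% of all genes. Thresholded summits inside the span of a member but farther than 500 bp from its TSSs numbered 0. Members were short, with a median span of 1381.5 bp against 2166 bp over all genes. Such summits were not counted over all genes, so the 0 has no background.

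The broadly used genes and the copies differed in their surroundings as well. A divergent TSS of another protein-coding gene lay within 1000 bp of the 5′ end in 19 of the 32 broadly used genes (59.4%), in 3 of the 16 copies and in 32.5% of all protein-coding genes. Pooled-list promoter summits were found at 76.6% of all genes with such a neighbour and at 44.6% of those without. Within the genes that lacked a divergent neighbour, 13 of 13 broadly used genes and 0 of 13 copies had a pooled summit, and of those with no other TSS of any direction within 1000 bp, 11 of 11 and 0 of 12 did, against 42.7% of all such genes. A single exon, found in 6 copies and in 4 broadly used genes, gave 0 of 6 and 4 of 4, against 32.3% of all single-exon genes. In the thresholded list the broadly used genes were near or below the background in several of these classes. They had a summit there in 6 of 19 with a divergent neighbour (31.6%, against 35.04% of all such genes). Without such a neighbour it was 3 of 13 (23.1%, against 12.4%), namely Prosalpha5, Rpn6 and Rpn9. The class was judged at the 5′ end. At Rpn6 and Rpn9 the summit was counted at an internal TSS and lay nearest the start of an opposite-strand gene. With no other TSS nearby it was 1 of 11 (9.09%, against 10.96%), and with a single exon 0 of 4 (against 8.23%). The G and C content of the promoter window was similar, with a median of 33.5% in the broadly used genes and 32.7% in the copies, against 38% over all genes.

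**Figure D3:**
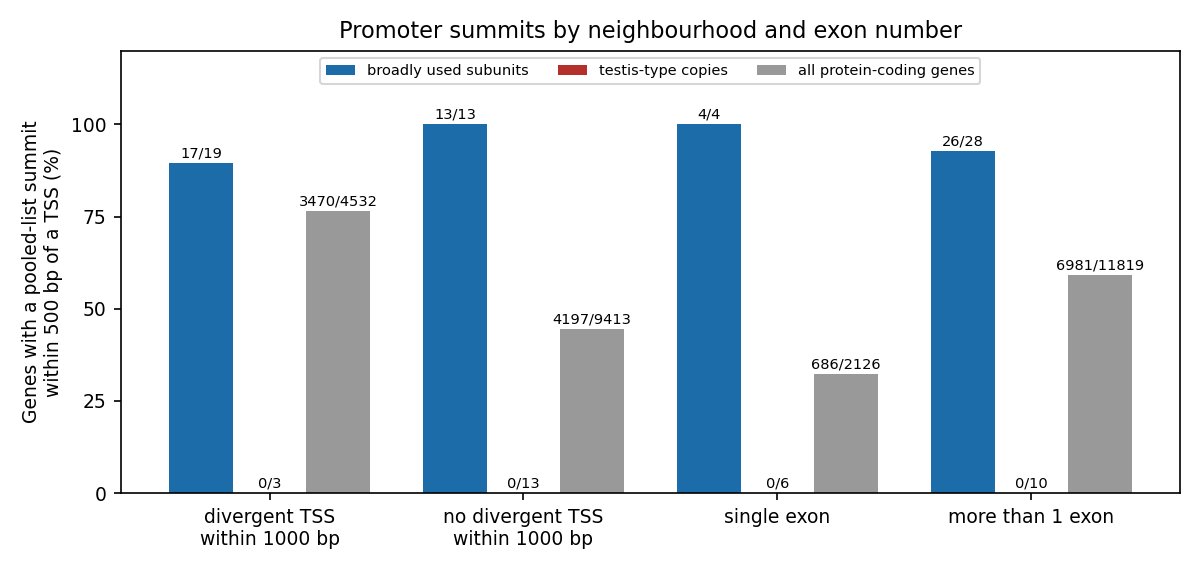
Percentage of genes (y axis, from 0) with a pooled-list summit within 500 bp of a TSS, by divergent neighbour and by exon number, for broadly used subunits (blue), testis-type copies (red) and all protein-coding genes (grey); the counts stand above the bars. The broadly used genes are at 17 of 19, 13 of 13, 4 of 4 and 26 of 28, and the copies are at 0 in every class.

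Most copies lay kilobases from the nearest pooled summit. From the 5′ end of a copy to the nearest pooled summit the median distance was 4774 bp, with a range from 546 bp at Prosbeta2R2 to 27180 bp at Prosbeta5R2. The same distance had a median of 88 bp for the broadly used genes, with a highest value of 2157 bp at Prosalpha1, and of 424 bp over all protein-coding genes. The distances of the groups overlapped through Prosalpha1, Prosbeta2 and Rpn8, whose peak lies at a second TSS. Prosbeta4R1 and Prosbeta4R2, neighbours on arm 2L, were 26851 and 24503 bp from the nearest summit. Gene spans of copies and subunits were compared over their best local alignment. Apart from Prosalpha1R, the copies matched their broadly used subunit at 62.4 to 80.3% of the aligned bases. Those bases, counted without gaps, covered from 15.2% (Rpn13R) to 76.8% (Rpn12R) of the longer span. Prosalpha1R matched at 100%. Of the 16 copies, 13 belong to a subunit whose broadly used gene had a pooled promoter summit.

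In the replicates' own whole lists 3 copies had a weak promoter summit, each in 1 replicate and 0 in both. In replicate 1, Prosbeta2R2 had a signal of 19.2 at rank 11568 of 30000, with its summit 252 bp upstream, and its divergent neighbour CG1116 starts 129 bp away. Rpt3R had 12.5 at rank 28069, and Alg12 starts 19 bp from it on the opposite strand. In replicate 2, Prosalpha4T1 had 14.9 at rank 19839, with the summit 419 bp upstream. These ranks compare with lists in which 53.3% and 54.96% of all protein-coding genes had a promoter summit.

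**Figure D4:**
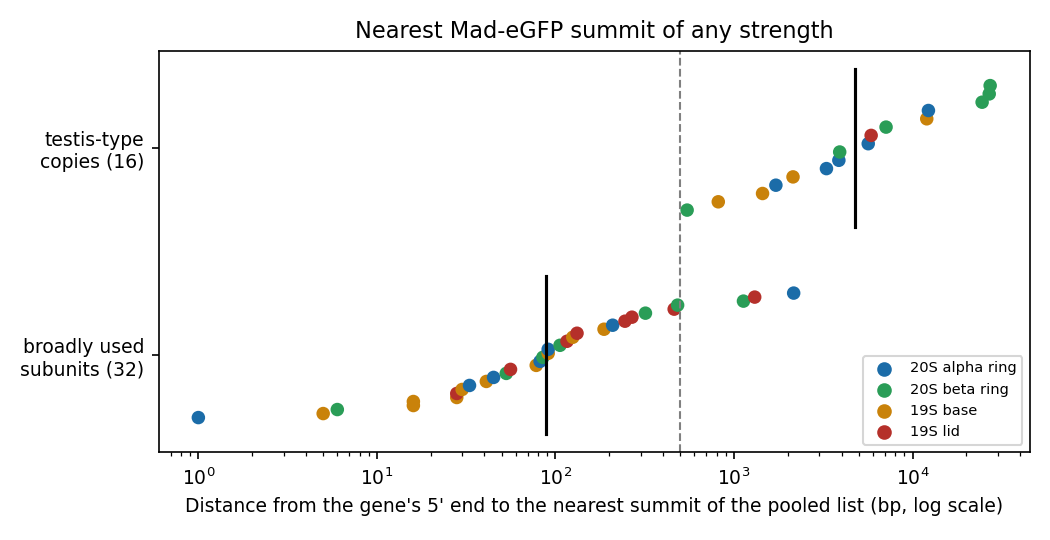
Distance from the 5′ end of each member to the nearest summit of the pooled list (x axis, bp, log scale) for the 32 broadly used genes and the 16 copies, coloured by role; vertical bars are medians (88 and 4774 bp) and the dashed line marks 500 bp. Every copy lies to the right of that line.

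The DREF site was found in a larger share of the broadly used genes than of the copies or of all genes, and ribosomal protein genes also had a larger share than all genes. In the window from 250 bp before to 50 bp after each TSS, TATCGATA (read on both strands, a palindrome) occurred in 12 of the 32 broadly used genes (37.5%), in 1 of the 16 copies (Rpt3R), in 28 of 92 ribosomal protein genes (30.4%) and in 10.2% of all protein-coding genes. It was present in 5 of the 9 broadly used genes with a thresholded peak (55.6%: Prosalpha5, Prosalpha6, Prosbeta1, Rpn3 and Rpn9) and 7 of the 23 without (30.4%), and over all genes in 17.6% with and 8.33% without a thresholded promoter peak. The shorter ATCGATA, which every TATCGATA contains, was found in 20 of the 32 (7 of the 9 with a thresholded peak), in 1 of the 16 copies, in 37 of 92 ribosomal protein genes (40.2%) and in 20.2% of all genes. Within 100 bp of the summit, TATCGATA occurred at 3 of the 9 thresholded peaks, those of Prosalpha5, Prosbeta1 and Rpn3, against 6.16% of all thresholded peaks. The 9 were chosen within 500 bp of a TSS, while the 3590 peaks of the list lie at any distance. The share over promoter peaks alone was not computed.

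The other sequences searched were compared in the same window. GGTCACACT, the site of M1BP, occurred in 6 broadly used genes (18.8%), none of them among the 9 with a thresholded peak, in 0 copies and in 6.78% of all genes. TGACNNNGC, the core of the element bound by cnc with maf-S, which activate proteasome genes under stress, was in 6 of 32 broadly used genes (Prosalpha2, Prosbeta3, Prosbeta7, Rpn1, Rpn7 and Rpt6), in 1 copy and in 11.2% of all genes. The GC-rich Mad site GCCGNCGC was in 3 broadly used genes (Rpn8, Rpn9 and Rpt5), in 0 copies and in 4.98% of all genes. At the 5′ end alone it was in 1 of 32 broadly used genes, against 3.16% of all genes. Of the 3, Rpn9 had a thresholded peak, and its site lay 226.5 bp from the summit. The composite element of Mad, Medea and shn was in 0 members and in 0.638% of all genes. Within 100 bp of the summit, each of these Mad motifs occurred at 0 of the 9 thresholded peaks. Over all 3590 thresholded peaks the GC-rich site occurred at 54 and the composite element at 10. Both are so rare that 0 of 9 does not set these peaks apart from the list. CAGCTG was in 3 broadly used genes against 22.3% of all genes, CATCNCTA in 4 against 7.44%, and TATAAA in 14 against 51.2%. All motifs were read on both strands, a match is a description of the letters, and no share was tested.

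Genes that work with the proteasome had thresholded promoter peaks in 8 of 19 cases (42.1%), against the 19.7% of all genes. The 95% Wilson interval was 23.1 to 63.7%, and pooled peaks were present in 19 of 19. The list was chosen by hand and includes RpL40 and RpS27A, which are also among the ribosomal protein genes. Among regulators, Keap1, the inhibitor of cnc, had a signal of 145 (72.2 in replicate 1, 73.6 in replicate 2) with its summit 56 bp upstream of the TSS. cnc itself, the Nrf-type activator, had 124 (62.8 and 60.2) with the summit 343 bp downstream of a TSS, and maf-S, its partner, had a weaker peak of 51.5, overlapped in replicate 2 (36.7) and not in replicate 1. The replicates gave nearly the same values at Keap1 and cnc. Of the assembly and partner genes, the core maturation factor Pomp had 109 (59.1 and 55.6), the deubiquitinase gene Uch-L5 had 98.2 (44.02 and 52.7) nearest the start of Jarid2, and the proteasome regulator PI31 had 85.5 (40.9 and 39.5). REG, the activator cap of the core, had a weaker peak of 44.1 and Sem1, the small lid subunit that the symbol rule leaves out, one of 38.2. Among ubiquitin and unfoldase genes, the polyubiquitin gene Ubi-p63E had 111 (64.4 and 57.8), RpS27A, a ubiquitin fused to a ribosomal protein, had 102 (50.7 and 61.6) and the unfoldase gene TER94 had 94.7 (36.99 and 54.3). In 7 of these 8 cases no TSS of another gene was nearer to the summit, with that of RpS27A equally near the start of Ip259. The same held for 1954 of the 2753 protein-coding genes with a thresholded promoter summit.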

How the data were processed

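The 2 samples are biological replicates of 1 group, as the labels give them, each from its own biosample record. Per the labels, chromatin was sonicated to a size range of 200 to 800 bp. The peak lists are the authors' deposited dm6 lists, made from the alignments of the replicates together with control reads, per the notes that accompany the samples. The thresholded list was derived from the pooled list and both replicates' lists, per the same deposited notes. The control was not used here. No source used here states the aligner, the peak caller or the read depths. The deposited peak signal has no stated formula and was used to describe and rank peaks within a list. It was also compared between the lists of the 2 replicates, whose scales are not known to be equal. Summit positions are the deposited offsets added to the peak start, counted from 1.

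Genes and TSSs are those of Ensembl release 115 (BDGP6, the dm6 coordinates) on the 6 main chromosome arms, without transposable elements, and sequences are from the RefSeq release 6 genome, which has the same coordinates. The signal of a replicate at a peak is the highest signal among its peaks that overlap by at least 1 bp. The base comprises Rpt1 to Rpt6, Rpn1, Rpn2, Rpn10 and Rpn13. Gene spans were compared with Biopython 1.88 by local alignment. Of 21 related genes looked for, 19 were in the annotation, and Ecm29 and Ufd1-like were not found under those names. The dm3 lists were not used. Members and lists were chosen with earlier results of these data known. Any member could be named with its values, as could related genes, with neighbours that share a summit; weaker related genes, Prosbeta2, Prosalpha6T and CG1116 and Alg12 were added after their values were seen. Distances and motif search were checked on simulated summits and sequences, where 100% of 500 distances were right. Python 3.11.15 was used. A neighbour of one member is not reported here.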

Additional observations from a re-analysis of the deposited data

How the results depend on the processing

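The count of 9 broadly used genes with a thresholded promoter summit was 8 at a TSS distance of 250 bp and 9 at 1000 bp, at the 5′ end of each gene alone, and without Prosalpha1 and Prosalpha1R (added after the data were seen). With the nearest TSS only it was 4, in the 1000 strongest peaks 2, and in the whole pooled list 30. Over all protein-coding genes these shares were 14.3%, 6.50% and 54.98%. Related genes numbered 6 of 19 at 250 bp (31.6%, against 16.6% of all genes) and 8 at 1000 bp (42.1%, against 22.4%). They numbered 7 with the nearest TSS only (36.8%, against 14.3%) and 7 at the 5′ end alone (36.8%, against 17.9%). In the 1000 strongest peaks they numbered 1 of 19 (5.26%, against 6.50% of all genes), and in the whole pooled list 19. Leaving out replicate 1 or replicate 2 gave 9 and 10 broadly used genes, 7 and 8 related genes and 19.5% and 19.8% of all genes. Copies numbered 0 under each of these alternatives. Counted with the pooled list, copies numbered 0 at 250 bp and 2 at 1000 bp (Prosbeta2R2 and Rpt3R), and 1 without replicate 1 and 2 without replicate 2.

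The median signal of the 9 peaks was 87.9, and 81.02 with the nearest TSS only; without replicate 1 it was 52.4 and without replicate 2 it was 44.4, each on the replicate list's own values. The cause was not tested. The median log2 ratio of the replicates was 0.29 to 0.43 under the alternatives. TATCGATA was counted in 12 promoters, in 3 within 100 bp of the summit, where only the 9 genes with a peak were searched, and in 20 as ATCGATA. No paired analysis was possible because the series has 1 group. Read depth is unknown, so a missing peak is not shown to be missing binding.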
